A study of Mus musculus with 61 samples.

Results

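STAT5B in which a tyrosine of the SH2 domain is replaced by histidine (Y665H) was put back by retrovirus into CD4+ T cells that lack Stat5a and Stat5b, and the RNA of these cells was compared with that of null cells given the empty vector. The comparison asks how much STAT5 activity the Y665H protein has when the cells' own Stat5a and Stat5b are deleted, apart from the remainder described below. The libraries were chosen by their titles, which name the deleted background, the cell type and the vector. They are 3 libraries with Y665H and 3 with the empty vector, 6 of the 61 RNA-seq libraries of the study and 6 of its 30 CD4 libraries.

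All mice were C57BL/6 and 2 months old. The genotype entry of all 30 CD4 libraries reads Stat5a/b flox/flox, those titled WT included, so background was taken from the titles. According to the study's methods, the null cells came from mice with a Cd4-Cre transgene, so that the floxed Stat5 locus is lost in thymocytes that carry both coreceptors, and thereby in CD8 cells as well. Naive CD4+CD44lowCD25- cells from pooled lymph nodes and spleens were activated through the T cell receptor and CD28, transduced, kept with IL-2 for 48 h and sorted as live CD4+GFP+ cells. The empty vector and Y665H groups thus share the deletion, the activation, the virus and the IL-2, and differ in the insert. The null STAT5B group, with the unmutated protein, and the WT groups with the empty vector or Y665H are used beside them, each with 3 libraries. RNA was total RNA depleted of ribosomal RNA. The extract entry of the labels speaks of mammary tissue, which is at odds with the source entry and with the markers below. The labels number the replicates without naming cultures or animals. A legend of the study speaks of biological replicates that were independent, without saying what kept them separate, so p-values measure the spread between these samples. In such bulk samples fewer cells that use a gene and less RNA per cell cannot be told apart.

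STAT5A and STAT5B are transcription factors that lie downstream of IL-2 and related cytokines. Janus kinases phosphorylate them, phosphorylated molecules pair through their SH2 domains, and the dimers bind DNA at a palindromic element. Among their known target genes in T cells are Cish and the Socs genes, whose products damp cytokine signalling, and Il2ra, which encodes the alpha chain of the IL-2 receptor. The tyrosine altered in Y665H lies in that domain.

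The reference transcript Stat5b-202, the isoform used in the vectors, has a coding sequence of 786 codons. The codon of the altered tyrosine is TAC and lies on the minus strand at chr11:100787291-100787293 of GRCm38, in exon 16 of 19. The coding sequence of codons 650 to 680 (GENCODE vM21, chr11:100787246-100787338) is shown unmutated, because this is the place that the mutation alters, with the tyrosine codon in capitals.
Stat5b codons 650 to 680: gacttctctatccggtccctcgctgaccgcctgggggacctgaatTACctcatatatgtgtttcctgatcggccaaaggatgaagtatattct

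The 6 libraries held between 26834419 and 43062433 reads counted on genes. Levels are given as CPM, counts scaled to 1e6 per library after TMM scaling of all 30 CD4 libraries together, and values of 3 libraries are always in the order of replicate 1, 2 and 3. The cells carried the markers of CD4 T cells. The summed level of 12 such genes was 6407, 6261 and 5589 CPM with the empty vector and 6316, 6132 and 5715 CPM with Y665H, led by Cd4 with means of 1118 and 1032 CPM. Regulatory T cell markers, 6 genes led by Tnfrsf18, summed to between 1054 and 1289 CPM. The 8 B cell genes summed to at most 6.38 CPM, the 10 macrophage and monocyte genes to at most 13.2 CPM, the 7 NK cell genes to at most 8.35 CPM and the 2 CD8 genes to at most 20.5 CPM in any of the 6 libraries. S100a8, Klra4, Klra8 and the globin genes Hba-a1 and Hbb-bs had 0 reads in all 6.

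Some libraries stood apart. On the leading principal component of the 15 null libraries, which held 26.2% of the variance, empty vector replicate 3 was at 48.5, Y665H replicate 2 at 42.6 and Y665H replicate 3 at 82.9. The remaining libraries of these groups were at -43.9, -43.9 and -19.3. Among the leading genes of this component were Hydin, Fat2 and Muc4, all at low levels. Hydin was at 0.0275, 0.0580 and 1.10 CPM with the empty vector and at 0.460, 1.65 and 1.65 CPM with Y665H. The share of reads counted on no feature was 10.7%, 12.9% and 13.6% with the empty vector and 10.4%, 14.96% and 15.1% with Y665H. These values move in part with the vector, and their role in the results below was not tested beyond leaving the libraries out. Libraries with the same number also resembled each other. Xist, the RNA of the inactive X chromosome in female cells, was at 659, 2.84 and 1610 CPM with the empty vector and at 715, 3.95 and 1391 CPM with Y665H, and the Y-linked Ddx3y was at 93.8, 144 and 18.6 CPM and at 85.6, 98.2 and 37.7 CPM. Replicate 2 was therefore low in Xist in both groups, and replicates 1 and 3 held transcripts of both kinds. Most results are given below from the fit without the replicate number and, where it changes the call, from the fit with the number as a block, which compares the vectors within each number. For genes that passed the adjusted p only with the block, some values come from that fit alone.

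Stat5b shows the deletion and the vector. It was at 2.78, 5.30 and 9.49 CPM in null cells with the empty vector, at 239, 365 and 196 CPM with Y665H and at 355, 345 and 246 CPM with STAT5B. WT cells with the empty vector had 187, 209 and 207 CPM. Every Y665H library thus lay far above the empty vector libraries, and their mean was 132.5% of that of WT cells with the empty vector. An exact permutation test (two-sided) returned p = 0.1 against the null empty vector group, the smallest p that 3 against 3 allows, and p = 0.3 against the WT group. The log2 fold change over the empty vector was 5.54 (standard error 0.36, adjusted p = 2.14e-07). Counts per gene cannot tell vector transcripts from native ones.

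Stat5a, which no vector encodes, showed what remained of the deleted locus. It was at 1.70, 3.13 and 6.66 CPM with the empty vector, 1.98, 4.94 and 14.9 CPM with Y665H and 1.95, 2.43 and 5.39 CPM with STAT5B, against 137, 165 and 172 CPM in WT cells. Replicate 3 was the highest library in each of these null groups, and Y665H replicate 3 reached 9.43% of the WT mean. Coding sequences of Stat5a and Stat5b are identical at 90.8% of aligned bases, so that a small share of reads could be assigned to the wrong gene. The log2 fold change of Stat5a between the vectors was 0.95 (standard error 0.66, adjusted p = 0.896) and did not pass the test, while without Y665H replicate 3 it was -0.13. With the block it was 0.77 (adjusted p = 0.249), and it was called there only without Y665H replicate 1 (1.03, adjusted p = 0.00999). Cells that escaped deletion would raise both Stat5a and target genes, and their share was not measured. In replicate 1 Stat5a was at 1.70 CPM with the empty vector and 1.98 CPM with Y665H, and Socs2 was at 2.86 and 17.5 CPM. In replicate 2 Stat5a was at 3.13 and 4.94 CPM and Socs2 at 5.45 and 27.5 CPM. In replicate 3 Stat5a was at 6.66 and 14.9 CPM and Socs2 at 7.25 and 15.7 CPM. Whether escape contributes to the values below was not tested.

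**Figure D1:**
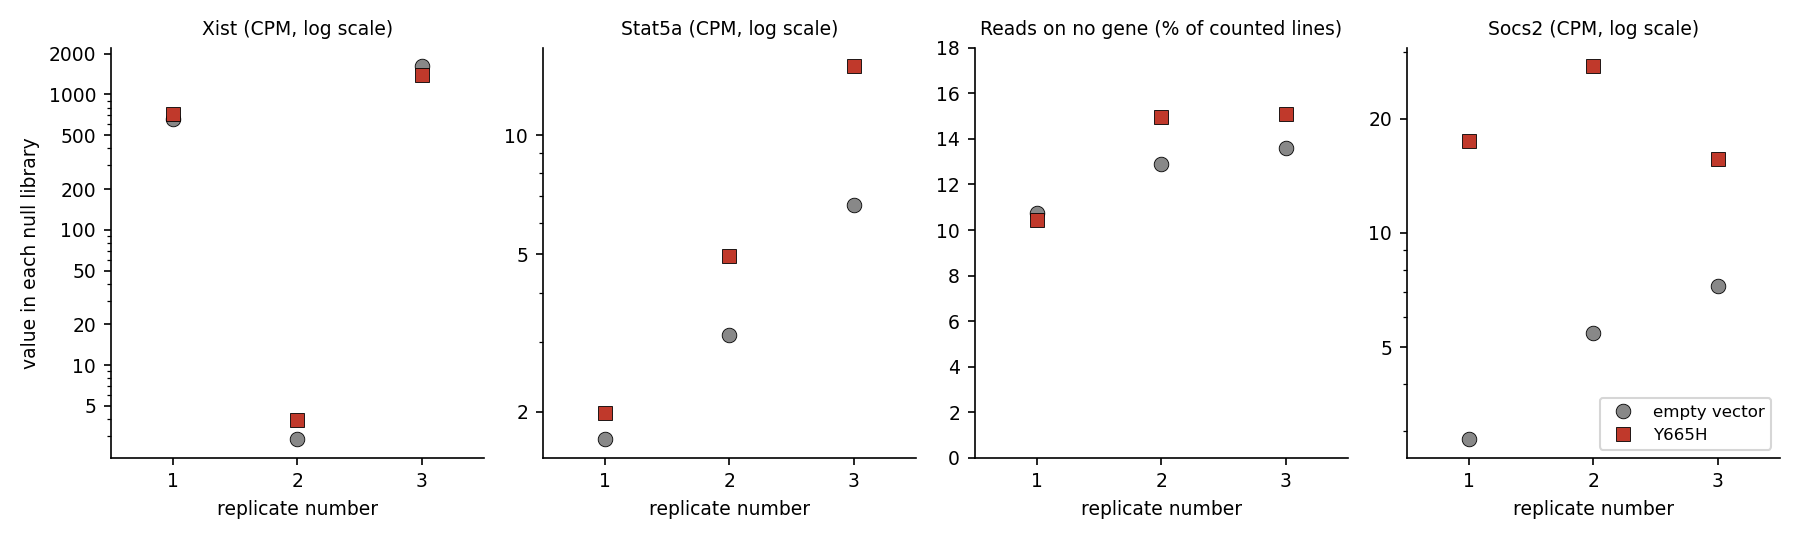
Values of the 6 null libraries by replicate number, for the empty vector (grey circles) and Y665H (red squares), with Xist, Stat5a and Socs2 in CPM on log axes and the reads counted on no feature as a percent of all lines. Xist follows the replicate number, Stat5a is highest in replicate 3 of both groups, and Socs2 is higher with Y665H in each pair.

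Y665H raised few genes in null cells. A gene was called at an adjusted p under 0.05 (edgeR's quasi-likelihood test, Benjamini-Hochberg adjustment over all genes tested) together with a log2 fold change above 1 or below -1. Beside Stat5b, the called genes were Socs2, a feedback inhibitor of cytokine receptors, and Akr1c18, Akr1c12 and Akr1c13, aldo-keto reductases that act on steroids and related carbonyls. All 5 were higher with Y665H, 5 of 20113 genes tested (0.0249%). Without the adjustment 1021 genes (5.08%) had p under 0.05, 687 of them higher (3.42%) and 334 lower. With the replicate block 21 genes were called (0.104%), 17 higher (0.0845%) and 4 lower (0.0199%). They include all 5 genes called without it and 16 more, among them Cish, Igfbp4 and Kcnj8. The common dispersion, the squared spread between libraries of a group beyond counting error, was 0.0324 without the block and 0.01299 with it. DESeq2 called 13 genes without the block and 25 with it. Without the block, the call count was 3 without empty vector replicate 1 and 8 without empty vector replicate 3. With the block it ranged from 11, without empty vector replicate 2, to 41, without Y665H replicate 1. With the 3 libraries that stand apart left out together, a setting chosen after seeing the data that leaves a single Y665H library, replicate 1, and takes the spread from the other groups, 4 genes were called without the block and 43 with it, 20 higher and 23 lower, of which 14 were among the 21. The balance between higher and lower genes thus varied, at 18 and 14 without Y665H replicate 2 and at 11 and 27 with the Stat5a level as a covariate, both with the block. It was 16 and 1 with RLE size factors and 12 and 1 with filterByExpr, also with the block.

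**Figure D2:**
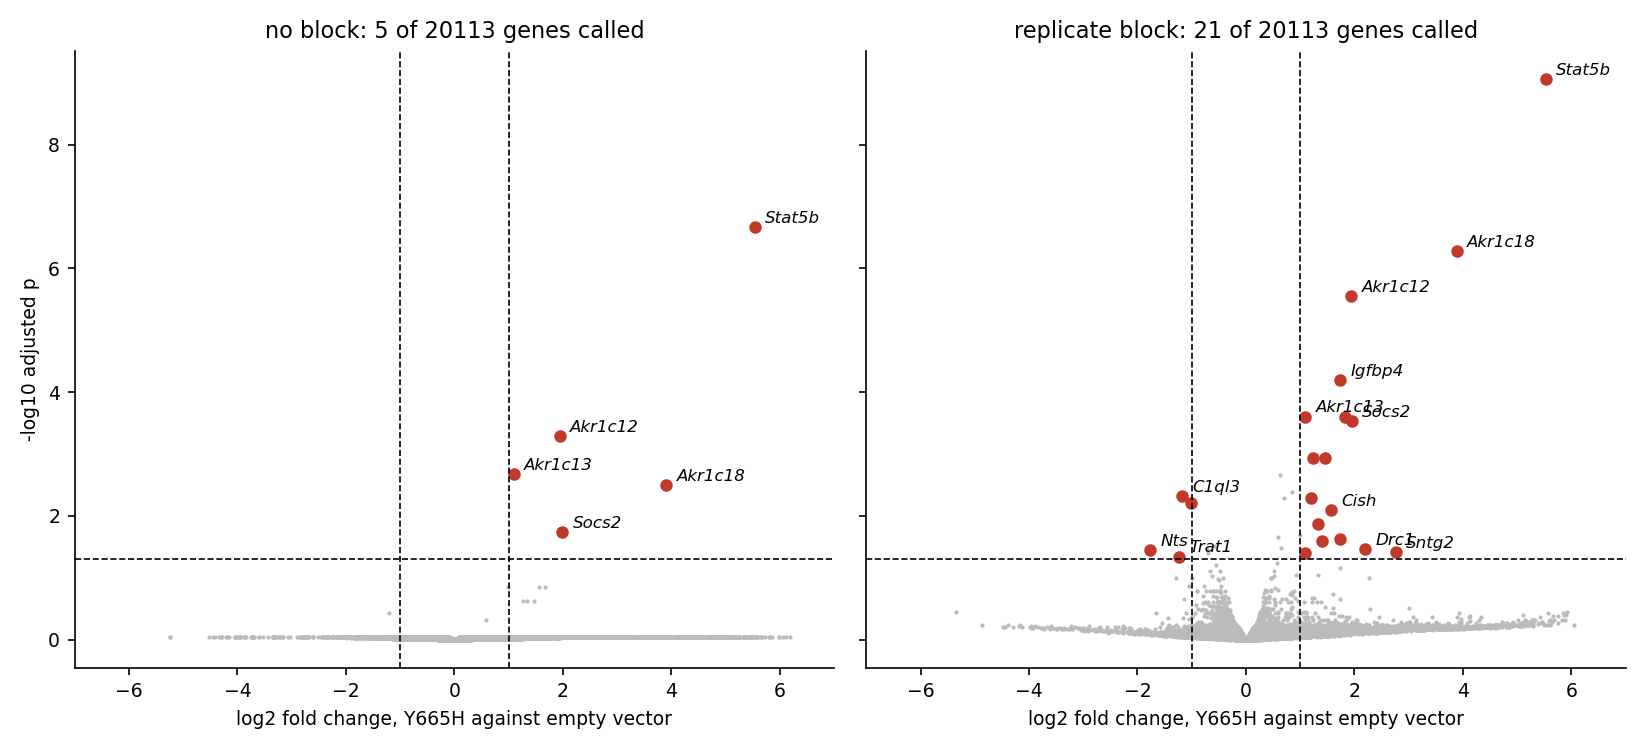
Log2 fold change (x axis) and -log10 adjusted p (y axis) of the 20113 genes for Y665H against the empty vector in null cells, without the block (left) and with it (right). Red points are the 5 and 21 called genes, and the dashed lines mark the thresholds of 0.05 and of 1 in either direction.

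The feedback inhibitors of STAT5 signalling were led by Socs2 and Cish. Socs2 was at 2.86, 5.45 and 7.25 CPM with the empty vector, 17.5, 27.5 and 15.7 CPM with Y665H, and 134, 129 and 84.1 CPM with STAT5B. All Y665H libraries lay above all empty vector libraries and below all STAT5B libraries. The log2 fold change of Socs2 over the empty vector was 1.99 (standard error 0.31, adjusted p = 0.0185), and with the block 1.95 (standard error 0.24, adjusted p = 0.000294). Its call without the block was lost without empty vector replicate 1 (1.70, adjusted p = 0.160), without empty vector replicate 2 (2.04, adjusted p = 0.116) and without Y665H replicate 2 (1.68, adjusted p = 0.0817). It was also lost with filterByExpr (adjusted p = 0.0670), the 6 libraries alone (0.284), 1 RUVr factor (0.0521) and the libraries that stand apart left out (0.166), over a range of adjusted p from 0.000245 to 0.284 in all settings. With the block it was kept in all 6 such fits.

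Cish, an SH2 protein that binds cytokine receptors and damps STAT5 signalling, was at 10.2, 25.6 and 31.1 CPM with the empty vector and 52.3, 79.5 and 63.5 CPM with Y665H, against 226, 220 and 158 CPM with STAT5B. The groups did not overlap, and empty vector replicate 1 was the lowest library. The share of all genes whose groups do not overlap was not counted, so a lack of overlap, here and below, only describes the gene. The log2 fold change of Cish was 1.56 in both fits, with a standard error of 0.30 and an adjusted p of 0.142 without the block and 0.26 and 0.00794 with it, so that edgeR called Cish with the block and not without it. Without the block it was called by DESeq2 (1.58, adjusted p = 0.0102), with no filter on low counts (1.57, adjusted p = 0.0233) and when empty vector replicate 3 was left out (1.86, adjusted p = 0.0266). The call with the block was lost without empty vector replicate 2 (1.57, adjusted p = 0.0757), with filterByExpr (1.58, adjusted p = 0.0550) and with the Stat5a level as a covariate (1.18, adjusted p = 0.178). Its adjusted p was between 5.56e-14 and 0.178 over all settings with the block.

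Among all 8 inhibitors tested, 1 was called without the block and 2 with it, against 0.0249% and 0.104% of all genes. Of the 8, 4 had positive values and 4 negative (50.0% positive, against 55.5% of all genes), and the median log2 fold change was 0.29, against 0.04. At an unadjusted p under 0.05, 4 were higher and 0 lower without the block, and 4 higher and 3 lower with it. The remaining positive members were Socs1, at 8.25, 16.5 and 19.3 CPM against 18.1, 28.8 and 25.7 CPM (0.74, adjusted p = 0.896), and Socs3. Socs1 was called with the block only without empty vector replicate 3 (1.13, adjusted p = 0.00483). Socs3 was at 2.53, 6.09 and 9.15 CPM with the empty vector and 3.55, 8.67 and 25.5 CPM with Y665H (1.11, adjusted p = 0.896), and its level was highest in Y665H replicate 3, as that of Stat5a was. Without the 3 libraries that stand apart, which leaves Y665H replicate 1 alone, the value of Socs3 was -0.28. With the block and no filter on low counts Socs3 was called (1.02, adjusted p = 0.00315), and with the block and the Stat5a level as a covariate its value was -0.43. Socs7, the most abundant member, had a log2 fold change of -0.27 (adjusted p = 0.896).

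The DNA element of STAT5 dimers, TTC and GAA with 3 bases of any kind between them, reads alike on both strands. It was found in a promoter of 2582 of 27025 mouse genes (9.55%), taken from 250 bases before to 50 bases after each start site (RefSeq, GRCm38.p6). Of the 16 genes besides Stat5b called higher with the block, 15 had a promoter in that set, Socs2 not among them, and 2 of these 15 genes (13.3%) held the element, Cish and Fbxo17. By promoter the shares were 16.7% of those of these genes and 8.30% of all 32851, but the former counts the same element of Fbxo17 at 2 start sites. The Cish promoter (chr9:107296409-107296708, plus strand) is shown because it holds the element at the start site and again 11 bases downstream, in capitals.
Cish promoter: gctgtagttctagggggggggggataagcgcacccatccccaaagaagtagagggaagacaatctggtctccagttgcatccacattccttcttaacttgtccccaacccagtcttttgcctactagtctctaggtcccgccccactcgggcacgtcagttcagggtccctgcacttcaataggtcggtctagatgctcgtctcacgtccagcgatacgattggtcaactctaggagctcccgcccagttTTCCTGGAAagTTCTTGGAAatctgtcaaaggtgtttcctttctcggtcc
In the Fbxo17 promoter the element lies at -184 from the start site at one annotated start and at -192 at the other. Binding was not measured in these libraries, and the match describes the sequence only.

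Genes beside Cish were also measured. The neighbour Hemk1, a methyltransferase gene, lies 24.3 kb from Cish on chromosome 9, and 6430571L13Rik lies beyond it, 37.8 kb from Cish. 6430571L13Rik was at 0.907, 1.59 and 1.10 CPM with the empty vector and 3.48, 4.43 and 2.07 CPM with Y665H, against 17.4, 14.9 and 9.84 CPM with STAT5B. Its groups did not overlap, and it was called with the block (1.46, standard error 0.20, adjusted p = 0.00117) and by edgeR not without it (1.48, adjusted p = 0.237). Without the block it was called by DESeq2 (adjusted p = 0.00143), with the Stat5a level as a covariate (0.0187), without the libraries numbered 3 (0.0268) and without Y665H replicate 3 alone (1.73, adjusted p = 0.0387). Hemk1, singled out for its position after the values were seen, was at 11.7, 16.7 and 17.5 CPM and at 22.8, 25.6 and 27.5 CPM. Its log2 fold change of 0.74 did not pass the test in either fit (adjusted p = 0.896 without and 0.221 with the block).

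Of the Akr1c genes, 3 of 7 tested were called, and these 3 are among the 5 called of all 20113 (0.0249%). The Akr1c list was written with earlier results of these data known, so its share is a description and not a test. Akr1c18 encodes the enzyme that inactivates progesterone, and was nearly silent in null cells with the empty vector. It was at 0.275, 0.203 and 0.345 CPM with the empty vector, from 10, 7 and 10 reads, and at 5.11, 5.28 and 1.80 CPM with Y665H, from 222, 167 and 60 reads. Y665H replicate 3 was the lowest of its group and still above all 3 control libraries. The log2 fold change was 3.90 (standard error 0.52, adjusted p = 0.00317), and the call without the block was lost without empty vector replicate 1 (3.93, adjusted p = 0.0746, range 4.83e-09 to 0.0746 over all settings).

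Akr1c12 was at 2.56, 2.46 and 2.45 CPM with the empty vector and at 12.1, 9.62 and 6.77 CPM with Y665H. The control libraries were nearly level, and the Y665H libraries lay above them in all 3 pairs. Its log2 fold change was 1.94 (standard error 0.22, adjusted p = 0.000516), and its call was kept in every setting run. Akr1c13 was at 10.03, 8.61 and 11.05 CPM and at 24.5, 21.5 and 16.5 CPM, at 1.09 on the log2 scale (standard error 0.14, adjusted p = 0.00211). It stood just past the fold-change minimum and fell below it without Y665H replicate 1 (0.98, adjusted p = 0.0228). With the block it did so there (0.95) and without empty vector replicate 2 (0.96). Without the block Akr1c13 also lost its call with the 6 libraries alone (1.10, adjusted p = 0.284). The adjusted p of Akr1c13 ranged from 7.84e-10 to 0.284 over all settings without the block.

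These 3 genes lie within 147 kb on chromosome 13 (chr13:4132615-4279433), with Akr1c19 between Akr1c13 and Akr1c12. The coding sequences of Akr1c12 and Akr1c13 are identical at 96.2% of bases, so that the counting may have divided their reads unevenly and their separate values are uncertain. Akr1c18 is identical to them at 73.8% and 73.9% and is more readily told apart. Of the 9 genes of the Akr1c list, 7 passed the filter on low counts.

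**Figure D3:**
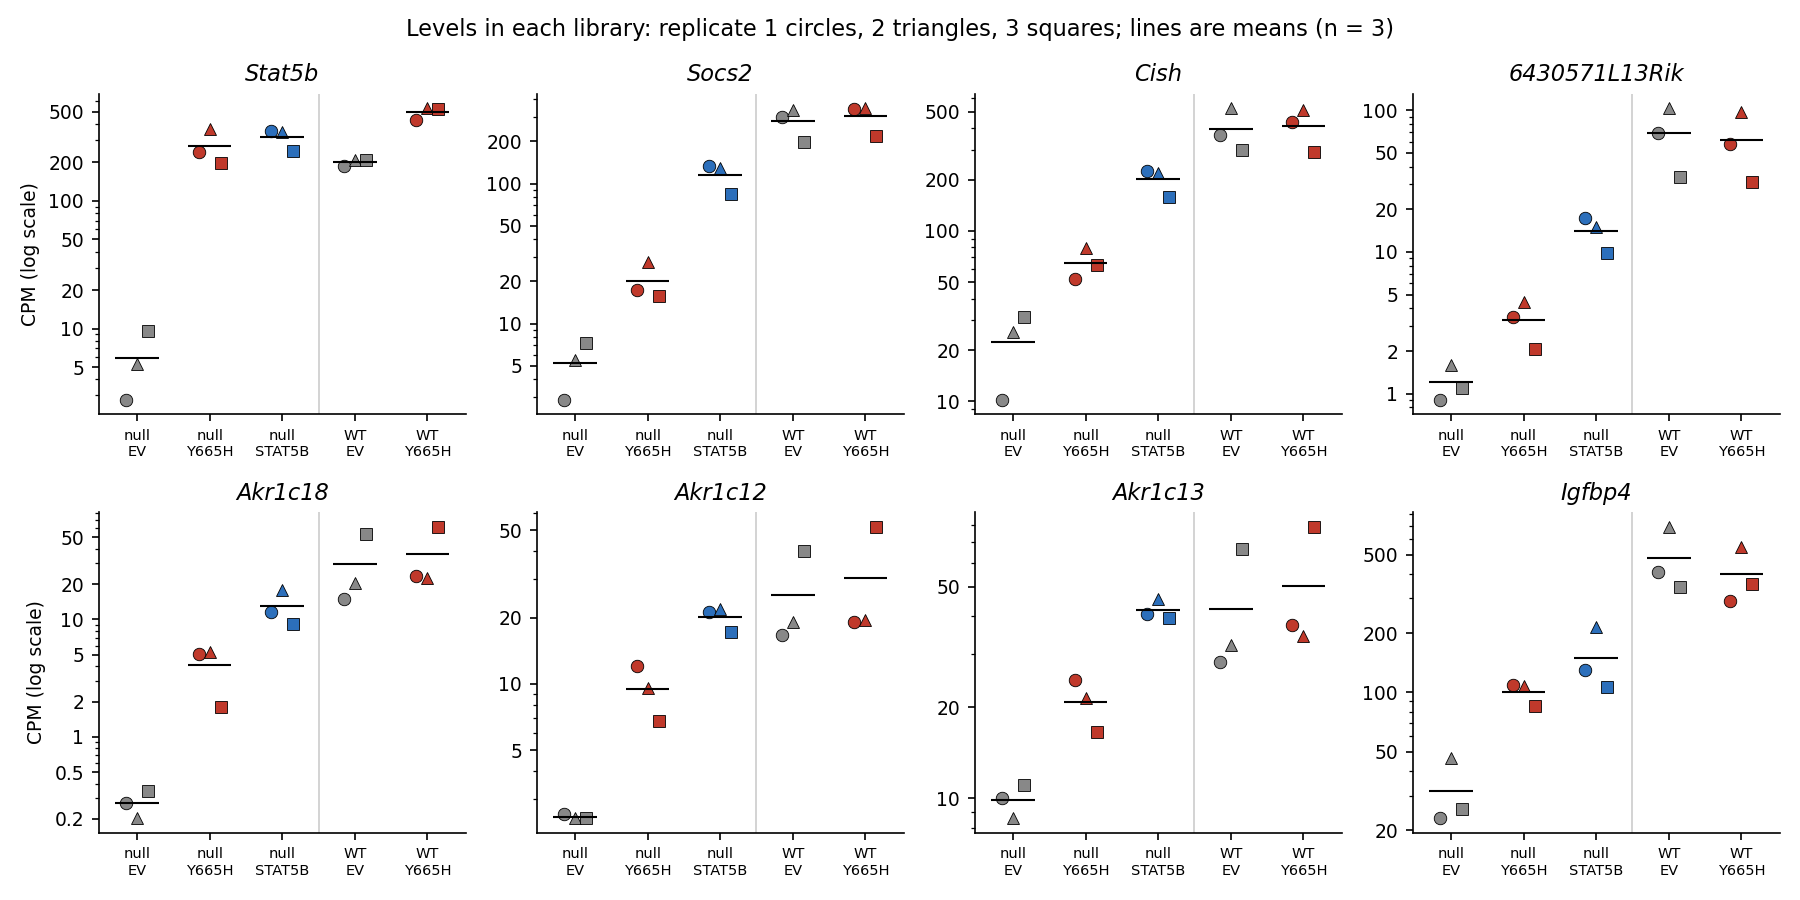
Levels of 8 genes in CPM (log axes) in each library of null cells with the empty vector, Y665H or STAT5B and of WT cells with the empty vector or Y665H. Circles, triangles and squares are replicates 1, 2 and 3, and lines are means (n = 3). The 8 genes were all called with the block for a rise with Y665H in null cells. That their Y665H libraries lie above all empty vector libraries there follows in part from this choice.

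Of the genes that edgeR called higher with the block and not without it, Igfbp4, which encodes a binding protein of insulin-like growth factors, was the most abundant. It was at 23.0, 46.3 and 25.5 CPM with the empty vector and 109, 108 and 84.9 CPM with Y665H. The groups were well apart, and empty vector replicate 2 was the highest control library. The log2 fold change was 1.73 with the block (standard error 0.19, adjusted p = 6.36e-05) and 1.68 without it (adjusted p = 0.142, or 0.0484 at 2.07 without empty vector replicate 2). Without the block it was also called by DESeq2 (adjusted p = 0.0166), with no filter on low counts (0.0233) and with the Stat5a level as a covariate (0.0191). Kcnj8, a subunit of ATP-sensitive potassium channels, was at 1.26, 1.25 and 0.621 CPM and at 4.01, 5.13 and 1.74 CPM. Fbxo17, which encodes an F-box protein, was at 3.30, 2.90 and 2.97 CPM and at 9.39, 7.66 and 4.67 CPM. With the block the values of Kcnj8 and Fbxo17 were 1.82 and 1.23 (adjusted p = 0.000248 and 0.00117). By edgeR without it they were 1.78 and 1.26 (adjusted p = 0.896 and 0.237). Without the block Kcnj8 was called without the libraries numbered 3 (adjusted p = 0.00378). Fbxo17 was called there (0.00399), by DESeq2 (0.00340), with the Stat5a level as a covariate (0.00338) and without Y665H replicate 3 alone (0.0387).

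The other genes called higher with the block were Dlk1 (1.20), a membrane protein of the Delta family, Gstt1 (1.34), a glutathione transferase, the noncoding RNA Gm6093 (1.74), Serpinb5 (1.40), Drc1 (2.20), Sntg2 (2.76) and Ly6c1 (1.09). Several were near the limit of counting. Sntg2 had 4, 1 and 3 reads with the empty vector and 34, 24 and 6 with Y665H. Ly6c1, a surface protein of T cell subsets and myeloid cells, was at 2.64, 4.93 and 12.7 CPM and at 3.32, 9.71 and 39.9 CPM, and Serpinb5 was at 0.302, 0.898 and 3.62 CPM and at 0.829, 2.34 and 9.64 CPM. In both of these genes the groups overlapped and replicate 3 was highest in each group, so that the difference appeared within numbers. Without the block the values of these 7 genes were 1.06, 1.35, 1.80, 1.45, 2.14, 2.81 and 1.41 in the order first given. They were not called there by edgeR (adjusted p = 0.237 for Gstt1 and 0.896 for the rest). Also without the block, DESeq2 called Gstt1 (1.37, adjusted p = 0.00989), and edgeR with the Stat5a level as a covariate called Dlk1 (1.56, adjusted p = 0.0496). Each of the 7 calls with the block depended on single libraries. Without empty vector replicate 1 the adjusted p was 0.0965 for Gstt1 (1.29), 0.0852 for Gm6093 (1.80), 0.0920 for Serpinb5 (1.30), 0.293 for Drc1 (1.74), 0.232 for Sntg2 (2.92) and 0.0643 for Ly6c1 (1.18). Dlk1 fell under the fold-change minimum without Y665H replicate 3 (0.92) or empty vector replicate 3 (0.99).

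The 4 genes called lower were Iigp1, C1ql3, Nts and Trat1, all called with the block. By edgeR without the block the values were -0.84, -1.20, -2.09 and -1.26 in that order (adjusted p = 0.908, 0.374, 0.896 and 0.896). Without it DESeq2 called C1ql3 (-1.19, adjusted p = 0.0212), and edgeR with the Stat5a level as a covariate called C1ql3 (-1.32, adjusted p = 0.0178) and Iigp1 (-1.71, adjusted p = 0.0169). Trat1, an adaptor that stabilizes the T cell receptor complex, was at 23.6, 16.9 and 30.1 CPM with the empty vector and 12.2, 6.68 and 10.4 CPM with Y665H, and its groups did not overlap. In the fit with the block, used for each fall given here, it fell by 1.24 on the log2 scale (adjusted p = 0.0454). C1ql3 fell by 1.18 (adjusted p = 0.00475), from 4.40, 5.62 and 7.52 CPM to 2.58, 2.21 and 2.72 CPM. Nts, which encodes neurotensin, fell by 1.76 (adjusted p = 0.0356), from 2.28, 4.75 and 13.6 CPM to 1.29, 1.55 and 1.95 CPM. Iigp1, an interferon-induced GTPase, was at 53.6, 90.9 and 167 CPM and at 20.8, 45.5 and 105 CPM, overlapping between the groups, and fell by 1.01 within the numbers (adjusted p = 0.00616). Without empty vector replicate 2 the calls of Trat1 (-1.03, adjusted p = 0.398), C1ql3 (-1.09, adjusted p = 0.0516) and Nts (-1.95, adjusted p = 0.0516) were lost, and without empty vector replicate 1 that of Iigp1 (-0.74, adjusted p = 0.0394). With RLE size factors and the block, Trat1 (adjusted p = 0.0556) and Nts (0.0513) lost the call, and Iigp1 missed the fold-change minimum (-0.99).

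Of the 21 genes called with the block, 8 kept the call whichever of the 6 libraries was left out. They were Stat5b, Akr1c18, Akr1c12, Socs2, Igfbp4, Kcnj8, Fbxo17 and 6430571L13Rik. The other 13 lost it at least once, among them all 4 of the lower genes. Ly6c1 and Nts lost it in 5 of 6 fits, as at 0.85 (adjusted p = 0.304) and -1.32 (adjusted p = 0.349) without Y665H replicate 3. Adjusted p over all settings with the block ranged from 2.12e-06 to 1 for Ly6c1 and from 6.64e-08 to 0.897 for Nts.

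A further 9 genes passed the adjusted p with the block below the fold-change minimum, 30 of 20113 in all (0.149%). Lif, which encodes a cytokine of the IL-6 family, was at 22.0, 27.4 and 38.7 CPM with the empty vector and 44.5, 46.9 and 42.4 CPM with Y665H (0.64, adjusted p = 0.0328). Treml2, a receptor of activated lymphocytes, was at 7.998, 8.46 and 12.9 CPM and at 18.05, 17.1 and 22.2 CPM (0.99, adjusted p = 0.0205). Both were above all control libraries in all 3 Y665H libraries. Of 16 settings that varied the blocked fit, among them dropping the block, Treml2 was called in 9. These 9 include the setting with no fold-change minimum, and Treml2 reached at most 1.27 (adjusted p = 0.000102), without empty vector replicate 3. Without the block it was called by DESeq2 (1.0006, adjusted p = 0.00342), without the libraries numbered 3 (1.10, adjusted p = 0.00980) and without empty vector replicate 3 (1.21, adjusted p = 0.0101). The others were Id2, Itih5, Kcnk5 and 2010111I01Rik, higher, and Serpinb9, Tgtp1 and Tmem158, lower. Lif, Treml2, Socs1, Socs3 and Bcl6 were chosen for mention after the values were seen.

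Across the wider set of STAT5-activated T cell genes, few single genes passed the test. Of 45 such genes, 1 was called without the block (Socs2) and 2 with it (Socs2 and Cish). Of these 45, 34 had positive log2 fold changes (75.6%), against 55.5% of all genes tested, and the median was 0.21, against 0.04. A share of 26.7% was higher at an unadjusted p under 0.05, against 3.42% of all genes. Socs2 and Cish are part of these figures. The list was written with earlier results of these data known, so its shares describe it and do not test it. Other lists, some of which share members with this list, had larger positive shares, 92.9% for glycolysis, 90.9% for the cell cycle, 88.9% for T helper cytokines and 87.5% for interferon-stimulated genes. Their shares higher at an unadjusted p under 0.05 were 0, 0, 22.2% and 6.25% without the block. With the block they were 28.6%, 18.2%, 33.3% and 25%, against 35.6% of the 45 genes and 4.33% of all genes. Il2ra was at 154, 191 and 268 CPM with the empty vector and 280, 354 and 257 CPM with Y665H, and at 1076, 890 and 719 CPM with STAT5B. Its groups overlapped, and its value of 0.56 (standard error 0.21, adjusted p = 0.896) was not called. Lta, the gene of lymphotoxin alpha, was at 12.01, 14.3 and 18.4 CPM and at 20.5, 26.4 and 24.4 CPM (0.69, adjusted p = 0.896), and was called in the blocked fit without empty vector replicate 3 (1.14, adjusted p = 0.0152). Irf8, a transcription factor gene, was at 32.3, 49.4 and 152 CPM and at 23.5, 41.1 and 84.3 CPM (-0.63, adjusted p = 0.896), and without empty vector replicate 3 its value was 0.27. Ccnd2, the most abundant member, had a value of 0.13 (adjusted p = 0.908).

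The study's own list of genes nearest to enhancers bound by the Y665H protein was read in the same way. The study derived it from binding of STAT5B in splenic T cells of mice with the mutated gene, kept with IL-2 and IL-7. That was a separate experiment in other cells, and only the gene names were taken from it. The study reports very few bound sites in those cells and describes Y665H as largely inactive. Cish, Lta, Socs1 and Socs3 also stand in the list of STAT5-activated genes. Of 20 genes tested, 0 were called without the block by edgeR and 1, Cish, with it or by DESeq2. At an unadjusted p under 0.05, 10 were higher (50%), 1 was lower, 16 were positive (80%), and the median log2 fold change was 0.38. Over all genes 3.42% were higher at that p, 55.5% were positive and the median was 0.04. Eif5a, the most abundant of them and a translation factor, had a value of 0.12 (adjusted p = 0.921). The lower gene was Bcl6, a repressor that STAT5 is known to silence, at 25.9, 34.7 and 36.6 CPM with the empty vector and 14.8, 21.8 and 24.8 CPM with Y665H. Its groups did not overlap, and its value of -0.64 (standard error 0.20) did not pass the adjustment (adjusted p = 0.896 without and 0.0773 with the block).

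Of 15 genes that STAT5 is known to repress, 0 were called with edgeR in either fit, and the median was 0.03. At an unadjusted p under 0.05, 0 were higher and 2 lower, against 687 and 334 of all 20113 genes. With the block 2 were higher and 3 lower, against 870 and 770. Ccr7, the most abundant, was at 574, 670 and 737 CPM with the empty vector and 456, 572 and 524 CPM with Y665H (-0.34, adjusted p = 0.896). The other lists held 0 called genes by edgeR without the block. These were 8 gamma-chain cytokine receptors (median 0.09), 13 genes of JAK-STAT signalling (-0.12), 18 T helper cytokines (0.52), 15 survival and death genes (-0.14), 22 cell cycle genes (0.07), 16 of cholesterol synthesis (0.04), 14 of glycolysis (0.24) and 16 interferon-stimulated genes (0.35). At an unadjusted p under 0.05 without the block, the numbers higher were 1, 0, 4, 1, 0, 0, 0 and 1 in that order, and the number lower was 2 for JAK-STAT signalling and 0 for the rest. The 4 T helper cytokines are 22.2% of their list, against 3.42% of all genes, and the 2 lower genes of 13 stand against 334 of 20113. With the block the numbers higher were 2, 0, 6, 1, 4, 0, 4 and 4, against 870 of all genes. The numbers lower were then 3 for JAK-STAT signalling, 2 for survival and death, 1 for interferon-stimulated genes and 0 for the rest, against 770.

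**Figure D4:**
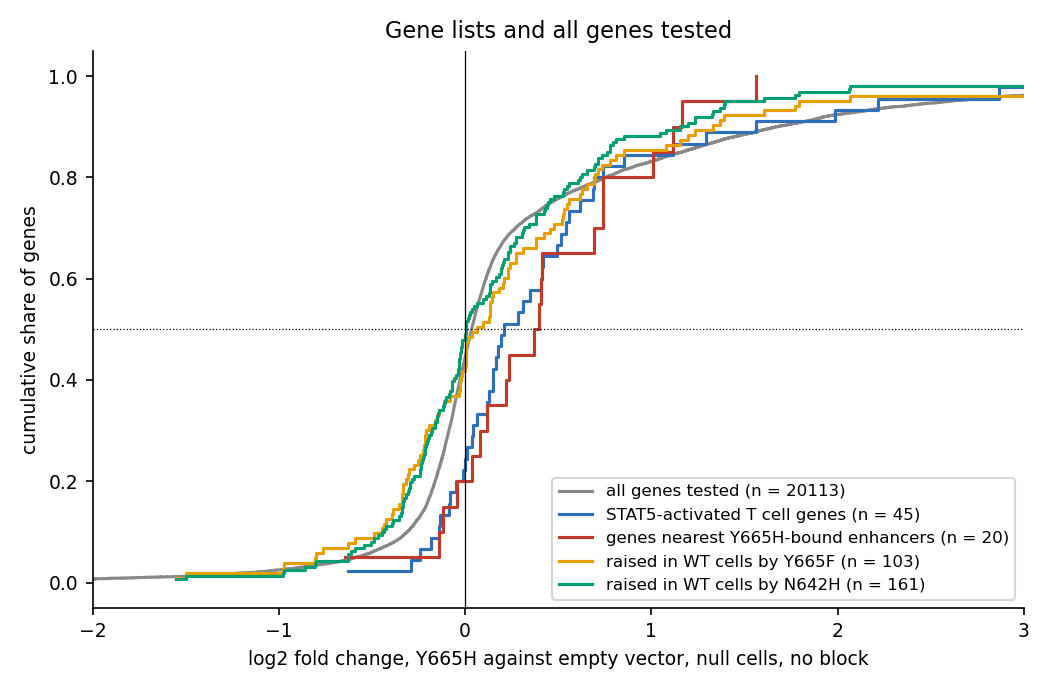
Cumulative share of genes (y axis) by log2 fold change of Y665H against the empty vector in null cells without the block (x axis), for all 20113 genes tested and for 4 gene lists. The STAT5-activated genes (45) and the genes nearest to Y665H-bound enhancers (20) lie to the right of all genes around the middle of the curves. The genes raised in WT cells by Y665F (103) or N642H (161) have medians near that of all genes.

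Unmutated STAT5B set the scale for these levels in the same null background. The Y665H level of the 16 genes called higher beside Stat5b was between 17.4% and 259% of the STAT5B level, with a median of 45.7%, and lay under it for 13 of them. The empty vector libraries were not part of this ratio, so it compares levels and not rises over the empty vector. The genes were chosen in a comparison that shares the Y665H libraries, which can raise the ratio. Against STAT5B, the log2 fold change was -2.50 for Socs2 (standard error 0.29, adjusted p = 0.00108), -1.60 for Cish (standard error 0.29, adjusted p = 0.0267) and -1.06 for Akr1c12 (standard error 0.20, adjusted p = 0.0278). Each was lower with Y665H in 3 of 3 pairs. Il2ra and Lta, which were not called over the empty vector, were also lower with Y665H than with STAT5B (-1.57, adjusted p = 0.00295, and -1.87, adjusted p = 0.0213). Akr1c13 missed the fold-change minimum at -0.98 (adjusted p = 0.00295), and Akr1c18 missed the adjusted p at -1.65 (0.0776) without the block and passed it with the block at -1.68 (5.14e-05). Igfbp4 stood at 66.9% of the STAT5B level, with 129, 214 and 107 CPM there and a difference of -0.55 (95% interval from -1.20 to 0.09, adjusted p = 0.550). The Stat5b transcript itself was not called between these vectors (-0.22, adjusted p = 0.828).

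The same vector was then read in WT cells, whose libraries the null comparison does not use. There the only gene called was Stat5b itself, 1 of 20509 (0.00488%), with 163 genes at an unadjusted p under 0.05, and DESeq2 also called 1. Socs2 was at 300, 336 and 197 CPM with the empty vector and 343, 346 and 218 CPM with Y665H (0.12, standard error 0.23), far above both null groups. Cish had a value of 0.06 and Akr1c18 of 0.29 in WT cells. Of the 16 genes called higher in null cells beside Stat5b, 13 had positive values in WT cells, with a median of 0.14 and a range from -0.28 to 0.46, and 0 were called. Of all genes tested in WT cells 9883 of 20509 (48.2%) had positive values, with a median of -0.00748. The 4 lower genes had values from -0.35 to 1.10 there.

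A test of the difference between the responses, over all 30 libraries, called 1 of 21975 genes (0.00455%). This was Stat5b, whose level with the empty vector was far lower in null than in WT cells. With the replicate block it called 8 (0.0364%), namely Stat5b, Socs2, Akr1c18, Akr1c12, Igfbp4, Kcnj8 and Fbxo17, which rose more in null cells, and C1ql3, with the opposite sign. The difference was 1.80 for Socs2 (standard error 0.27, adjusted p = 0.000589), 3.58 for Akr1c18 (standard error 0.44, adjusted p = 4.04e-05) and 2.00 for Igfbp4 (standard error 0.29, adjusted p = 0.000589). For Socs2 and Akr1c18, DESeq2 also called the difference without the block. In WT cells the replicate 1 pair missed the pairing minimum described below (0.0823 against 0.1, over all genes), so the blocked values of this test are less secure. Cish did not pass in either fit (1.49, adjusted p = 1.00 without and 0.0611 with the block). With the empty vector the 7 genes that rose more in null cells were higher in WT than in null cells, as Socs2 was with means of 278 and 5.19 CPM, and C1ql3 was lower (3.47 and 5.85 CPM), so the responses were measured from different starting points.

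**Figure D5:**
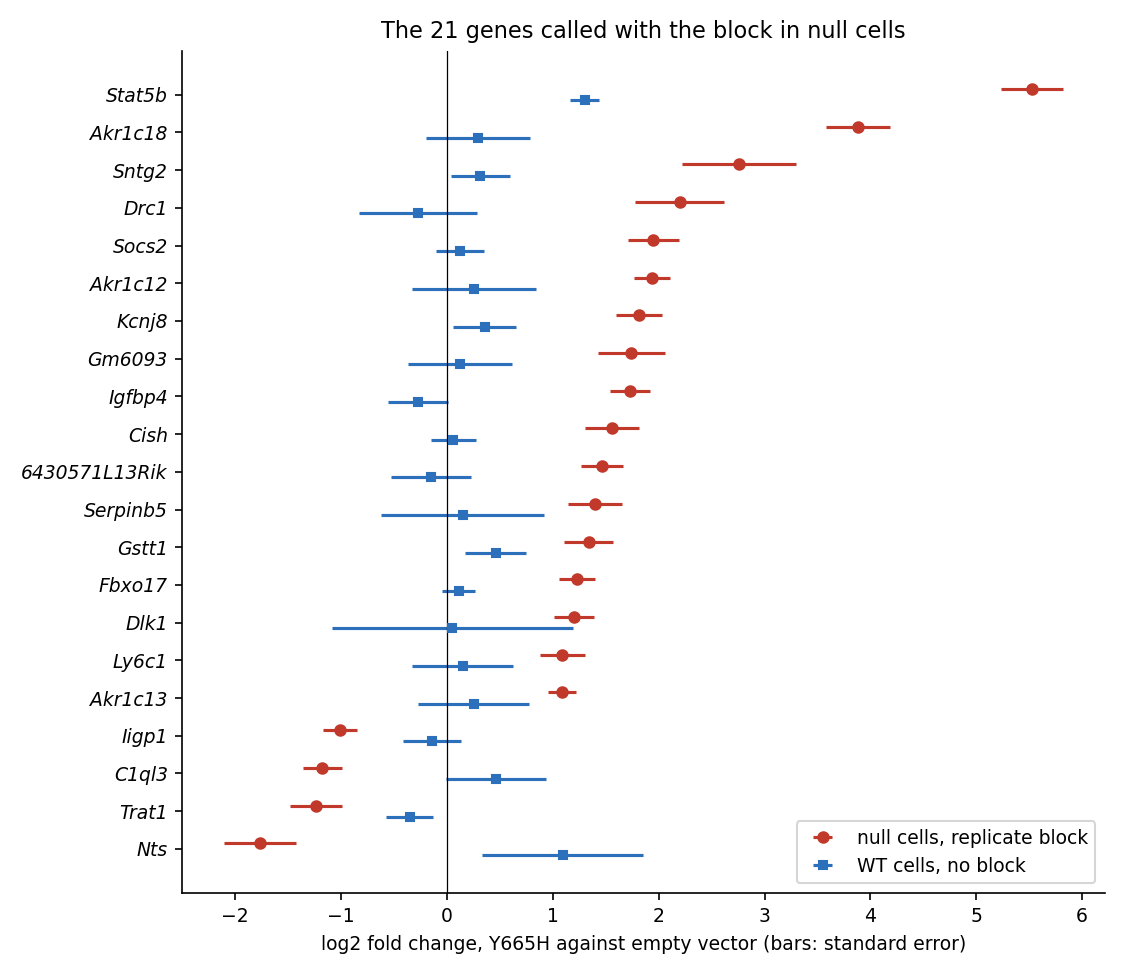
Log2 fold change of Y665H against the empty vector (x axis, bars are standard errors) for the 21 genes called with the block in null cells (red circles, with the block) and for the same genes in WT cells (blue squares, no block). The genes were chosen by the red values, and of the blue ones only that of Stat5b was called.

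Genes that the gain-of-function constructs raised in WT cells gave a list from libraries that the null comparison does not use. N642H, a known activating mutation of STAT5B, raised 161 genes besides Stat5b there, and Y665F raised 103, many of them in both lists. In null cells with Y665H, 0 of the 161 were called by edgeR, 8 (4.97%) were higher at an unadjusted p under 0.05, and their median log2 fold change was 0.00. Of the 103, 0 were called, 7 (6.80%) were higher at that p, and the median was 0.06. Over all genes the figures were 3.42% and 0.04. At that p 4 of the 161 and 3 of the 103 were lower, against 334 of all 20113. With the block 11 and 8 were higher and 9 and 8 lower, against 870 and 770. Unmutated STAT5B raised only H19 besides Stat5b in WT cells, so no median was taken. In null cells without the block, the 161 genes had a median of 0.22 with STAT5B against the empty vector. Of these 4 were called higher, and 29 were higher and 1 lower at an unadjusted p under 0.05. The 103 genes had a median of 0.35, 3 were called higher, and 21 were higher and 0 lower at that p. For all 20113 genes the median was 0.00497, and 1571 were higher and 1402 lower at that p. Most genes of both lists were thus not called with unmutated STAT5B either. The genes lowered in WT cells were 40 by N642H and 41 by Y665F, with medians of -0.12 and -0.10 in null cells with Y665H and 0 called by edgeR without the block. With the block 1 gene of each list was called, Igfbp4, higher in null cells with Y665H, while in WT cells N642H and Y665F lowered it (-1.56, adjusted p = 0.0108, and -1.71, adjusted p = 0.00885). At an unadjusted p under 0.05 without the block, 4 and 5 of these genes were higher and 1 and 0 lower, against 687 and 334 of all 20113. With the block 6 and 7 were higher and 7 and 8 lower, against 870 and 770. The medians of the raised lists moved with single libraries, between -0.13 without Y665H replicate 3 and 0.17 without Y665H replicate 1 for N642H, and between -0.04 without Y665H replicate 3 and 0.21 without empty vector replicate 3 for Y665F.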

How the data were processed

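Total RNA of the CD4+ T cells was sequenced, and the count per gene was made by the authors from trimmed reads placed on mm10. The submitters' notes name Trimmomatic 0.36, STAR, SAMtools 1.9 and HTSeq 0.9.1. The deposited files hold raw counts of 24421 genes by symbol, and 5 lines of reads without a gene (30.4% to 36.9% of the total in the 6 libraries) entered neither library sizes nor tests. The kit keeps strand, but the strand setting of the counting is not given in the sources used here, so overlapping genes on opposite strands, such as those at Cish and C1ql3, may share reads.

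Tests ran under R 4.3.3 and edgeR 4.0.16 (glmQLFit, glmQLFTest, TMM factors, genes with at least 10 reads over the libraries of a fit). The null fit took all 15 null libraries, the WT fit all 15 WT libraries and the test of the difference all 30. A standard error was taken as the absolute log2 fold change over the root of F. Stat5b and Stat5a levels were compared by exact permutation tests. Alternatives were RLE size factors, DESeq2 1.42.0, other filters, the 6 libraries alone, a RUVr factor, the replicate block and leaving out each library. The settings that left out libraries numbered 3 or those that stand apart, and the Stat5a level as a covariate, were chosen after seeing the data. The scripts were tested on simulated data. Promoters came from RefSeq and transcripts from GENCODE vM21, read with Biopython 1.88, and figures were drawn with matplotlib 3.10.9.

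The members, lists and rule for named genes were chosen with earlier results of these data known. The rule names Stat5b and Stat5a, every gene called without or with the block, and from the lists those that pass, those the study names and the most abundant member.

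Replicate numbers in the titles were taken to pair the libraries if every same-number pair of the groups compared had a correlation above 0.1 between deviations from the group means. For the empty vector and Y665H in null cells the correlations were 0.453, 0.103 and 0.364 over all 20113 genes, and 0.760, 0.657 and 0.589 over the 11477 genes whose mean reached 1 CPM. Over all 5 vectors, 18 of 30 same-number pairs passed on all genes and 30 of 30 on the smaller set, which was added after the former result was seen. Counts with the block were already known from earlier results when this was decided. In WT cells 2 of 3 such pairs passed on all genes, with replicate 1 at 0.0823, and 3 of 3 on genes whose mean reached 1 CPM. The criterion was thus not met there over all genes, and the block in the test of the difference is an alternative only.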

Additional observations from a re-analysis of the deposited data

Results flagged for a closer look

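The response to Y665H differed between the backgrounds by the test of the difference between the log2 fold changes, null minus WT. Without the replicate block this held for Stat5b alone, at 4.22 (standard error 0.37, adjusted p = 1.43e-07 by edgeR). With the block, whose pairing criterion was not met in WT cells over all genes, it held for 8 genes. The differences were 4.22 for Stat5b, 3.58 for Akr1c18, 2.00 for Igfbp4, 1.80 for Socs2, 1.73 for Akr1c12, 1.46 for Kcnj8, 1.11 for Fbxo17 and -1.68 for C1ql3. In WT cells none of these besides Stat5b passed the test by edgeR or DESeq2, and 163 genes had an unadjusted p under 0.05 there by edgeR. For Akr1c12, Igfbp4, Kcnj8, Fbxo17 and C1ql3 the difference passed only with the block. Why the responses differ was not tested.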

How the results depend on the processing

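Stat5b and Akr1c12 kept their calls in null cells in all settings run, with and without the replicate block. The number of genes called without the block, 5, was 13 with DESeq2, 3 with the 6 libraries alone, 21 with the replicate block, 12 without the libraries numbered 3 and 17 with the Stat5a level as a covariate (11 higher, 6 lower). The last 2 settings, and those that leave out the libraries that stand apart, were chosen after seeing the data. Leaving out single libraries gave 3 to 8. The blocked count, 21, was 13 with filterByExpr, 48 with no filter, 37 with the 6 libraries alone, 5 with no replicate block, 43 without the libraries that stand apart (20 higher, 23 lower) and 38 with the Stat5a covariate (11 higher, 27 lower), of which 11 were among the 21. The blocked count was 17 with RLE size factors (16 higher, 1 lower), and the 13 with filterByExpr were 12 higher and 1 lower. Leaving out single libraries gave 11 to 41, with 34 without empty vector replicate 3 and 32 without Y665H replicate 2 (18 higher, 14 lower). In the blocked fit 9 genes passed only when the fold-change minimum was dropped. The test of the difference called 3 genes with DESeq2 and 8 with the replicate block instead of 1, and the WT comparison called 1 in all settings. The block changed no other call of the named genes than those given. With single libraries left out, the median of the N642H list ranged from -0.13 to 0.17 and that of the Y665F list from -0.0432 to 0.21. Without the libraries that stand apart, which leaves Y665H replicate 1 as the only library of its group, values turned sign without the block, to -0.29 for Stat5a, -0.19 for Ly6c1 and -0.28 for Socs3. With the covariate Stat5a was at -0.00713, with the block at -0.0502, and Socs3 with the block at -0.43. With single libraries left out and no block, Stat5a ranged from -0.13 (without Y665H replicate 3) to 1.57, Ly6c1 from -0.0308 (without Y665H replicate 3) to 2.20 and Irf8 from -1.25 to 0.27 (without empty vector replicate 3). With the block Irf8 was at 0.0112 in that last case. Causes were not tested, except that the covariate removes Stat5a's own variation by construction. Genes with few reads, such as Sntg2 and Akr1c18 in control libraries, are limited by counting error, and 3 libraries a group limit what the adjusted p can show.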
